A study of Mus musculus with 10 samples.

Results

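Ltn1 and 7 partner genes of ribosome rescue and nascent-chain quality control (Nemf, Tcf25, Pelo, Hbs1l, Abce1, Ankzf1 and Vcp) were followed in the hippocampus of Dp5/Dp1 mice. The 8 genes were chosen by name for their place in this pathway, and each was read by its single-symbol probe set with the highest mean over the arrays, out of 19938 genes read in this way. All 8 were measured. Ltn1 was also read by each of its 16 probe sets. It is the only one of the 8 that lies in a duplicated segment.

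Total RNA came from the whole hippocampus, right and left, of male mice aged 16 weeks, with 5 mice per group and 1 array per mouse. Dp5/Dp1 mice are compound transheterozygotes for the Dp5Yah duplication, which covers Cyyr1 to Clic6, and the Dp1Rhr duplication, which covers Cbr1 to Fam3b. Both lie on mouse chromosome 16 (Mmu16), and the genes inside them are carried in 3 copies in place of 2. Controls were littermates with neither duplication, and the series design states that they were shared with the single Dp5Yah and Dp1Rhr lines of the same breeding, which are not analysed here. Dp5Yah was made in the living animal with loxP sites placed in App and Runx1, and the extra copies are carried by the whole animal. The labels give a C57BL/6N background for all mice and the study's methods give C57BL/6J. Since the array titles of the trisomic mice put Dp5Yah first and Dp5Dp1 only in parentheses, the content of both segments was checked. The mean of 41 Dp5Yah genes without Ltn1 lay between 8.96 and 9.06 in Dp5/Dp1 arrays, against 8.60 to 8.76 in control arrays, and that of 29 Dp1Rhr genes between 8.38 and 8.43 in Dp5/Dp1 arrays, against 8.18 to 8.21 in control arrays.

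A ribosome that stalls on an mRNA leaves an unfinished protein behind, and this pathway removes it. Pelo and Hbs1l recognise the stalled ribosome, and Abce1 splits it into subunits. The large subunit then still holds the nascent chain on a tRNA. Nemf binds there, recruits the ubiquitin ligase listerin, the product of Ltn1, and can extend the chain with a tail of added amino acids. Tcf25 shapes the ubiquitin chain that listerin builds, Vcp pulls the marked chain out for degradation by the proteasome, and Ankzf1 cuts the chain from its tRNA. In mice, loss-of-function alleles of Ltn1 and of Nemf cause degeneration of motor neurons.

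Ltn1 lies on the minus strand of chromosome 16 between 87376651 and 87432619 (GRCm38.p6). Close by in the annotation are N6amt1 (87354185 to 87368649) and Usp16 (87454985 to 87483515), which also act on ribosomes or translation and are triplicated with it. The partners lie elsewhere: Nemf on chromosome 12, Tcf25 and Abce1 on chromosome 8, Pelo on chromosome 13, Hbs1l on chromosome 10, Ankzf1 on chromosome 1 and Vcp on chromosome 4. The start regions of the 3 triplicated pathway genes are shown because the extra copy brought each of them along and all 3 were called higher in the arrays. Each runs from 250 bases before to 50 bases after the start site of the promoter table used, from RefSeq (GRCm38.p6), at chr16:87432557-87432856 on the minus strand for Ltn1, chr16:87353935-87354234 on the plus strand for N6amt1 and chr16:87454735-87455034 on the plus strand for Usp16. The start site is the outer end of the gene for N6amt1 and Usp16, whereas for Ltn1 it is 87432606, which lies 13 bases inside the gene as given above. Bases are counted from 1 at this start site, with -1 just before it. Capitals mark CGGAAG, a core read by ETS factors, searched on both strands.
Ltn1: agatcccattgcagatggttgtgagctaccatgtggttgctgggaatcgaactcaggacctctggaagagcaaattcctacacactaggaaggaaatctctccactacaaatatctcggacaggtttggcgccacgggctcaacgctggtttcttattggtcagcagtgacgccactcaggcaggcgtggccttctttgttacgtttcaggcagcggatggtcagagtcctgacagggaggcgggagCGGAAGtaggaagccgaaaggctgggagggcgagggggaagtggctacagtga
N6amt1: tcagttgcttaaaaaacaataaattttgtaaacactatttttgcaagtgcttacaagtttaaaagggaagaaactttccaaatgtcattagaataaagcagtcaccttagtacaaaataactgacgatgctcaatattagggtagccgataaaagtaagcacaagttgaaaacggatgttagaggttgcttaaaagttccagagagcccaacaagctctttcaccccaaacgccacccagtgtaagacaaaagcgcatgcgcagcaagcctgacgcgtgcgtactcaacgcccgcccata
Usp16: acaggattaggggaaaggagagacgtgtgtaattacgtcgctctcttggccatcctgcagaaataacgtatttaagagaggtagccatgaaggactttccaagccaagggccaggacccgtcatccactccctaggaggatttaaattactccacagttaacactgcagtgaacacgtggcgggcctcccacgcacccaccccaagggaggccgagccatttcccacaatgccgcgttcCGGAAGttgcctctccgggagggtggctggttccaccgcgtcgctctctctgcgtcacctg
CGGAAG occurred once each in the windows of Ltn1, beginning at -3 from the start site of the table, and Usp16, beginning at -11, and in 16.9% of all 32851 such windows. Of the 8 genes, 2 held it, Ltn1 and Ankzf1. CCAAT, on either strand, was in the windows of 6 of the 8 (not Pelo or Hbs1l) and in 37.4% of all windows. GGGCGG was in 1 of the 8, Hbs1l, against 35.7% of all windows, and TATAAA in 1 of the 8, Vcp, against 13.6%. These matches describe the letters in the windows and say nothing of which factors bind there.

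Ltn1 was higher in Dp5/Dp1 hippocampi and none of its 7 partners was called in either direction. By its brightest probe set (10440570), Ltn1 had RMA log2 signals of 11.33, 11.42, 11.39, 11.50 and 11.56 in Dp5/Dp1 arrays 1 to 5, against 11.14, 11.00, 11.00, 11.13 and 11.07 in control arrays 1 to 5. The lowest Dp5/Dp1 array stood above the highest control array. The means were 11.44 ± 0.09 in Dp5/Dp1 mice and 11.06 ± 0.07 in controls (SD, n = 5 each), a log2 difference of 0.38 ± 0.048 (SE) with a 95% interval of 0.27 to 0.48, or 1.30-fold. limma gave an adjusted p of 0.00576 over all 19938 genes. A full gene-dose effect of 3 copies over 2 would be 0.58 on the log2 scale, which is above that interval. However, this probe set had the smallest difference of the 16. The intervals of 9 others contained 0.58, and that of 1 lay above it. Of all genes tested, 0.201% were called higher in Dp5/Dp1 mice and 0.00502% lower, and 0.762% had all Dp5/Dp1 arrays above all control arrays. The 1 gene called of the 8 was the one inside a duplicated segment. Whole tissue was measured, so a different number of cells and a different amount of RNA per cell cannot be told apart.

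**Figure D1:**
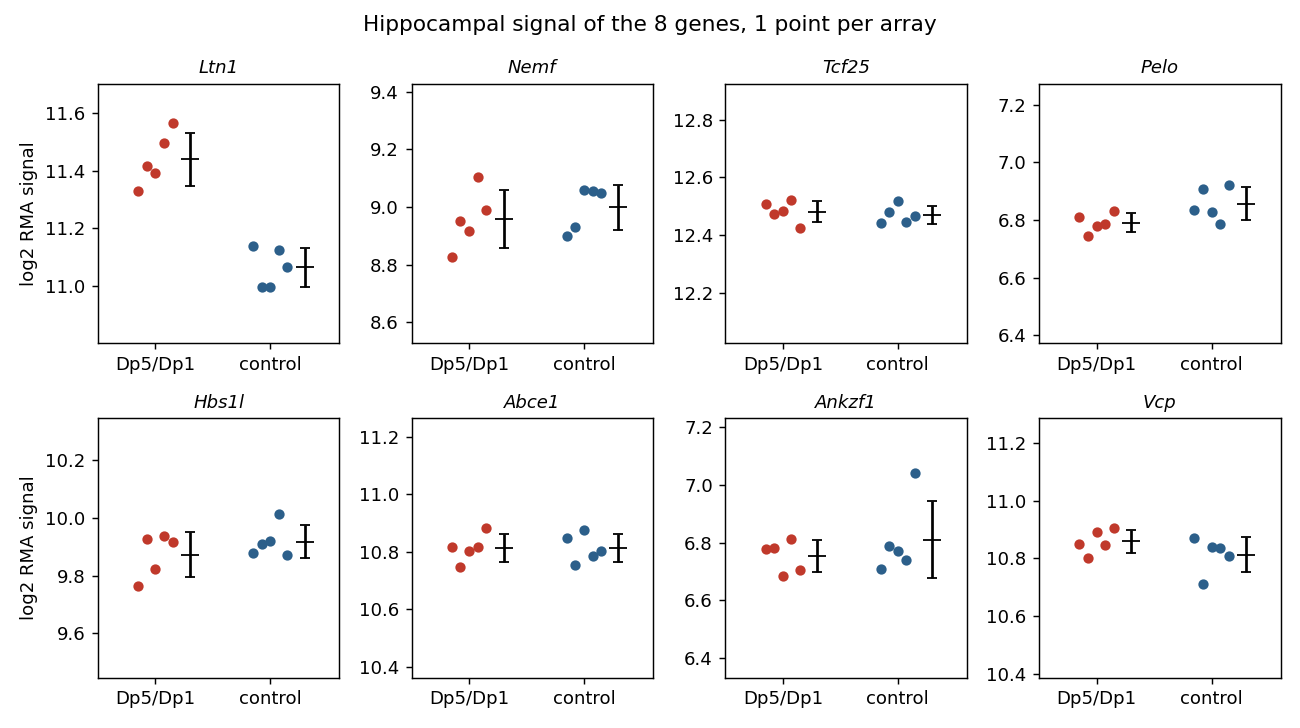
Log2 RMA signal (vertical axis, a window of equal height in each panel) of the 8 genes in 5 Dp5/Dp1 (red, left) and 5 control (blue, right) arrays, 1 point per array in the order of replicates 1 to 5, with the mean and SD as a black bar. The groups are apart for Ltn1 (11.33 to 11.56 in Dp5/Dp1 arrays, 11.00 to 11.14 in control arrays) and overlap for the other 7 genes.

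Marker genes of tissue next to the hippocampus varied between arrays. The mean of 10 medial habenula markers lay between 6.69 and 7.85 in Dp5/Dp1 arrays, with Dp5/Dp1 replicates 2 (7.85) and 5 (7.31) highest, against 6.62 to 7.09 in control arrays. The mean of 11 measured choroid plexus markers of 12 lay between 6.98 and 8.64 in Dp5/Dp1 arrays and between 6.87 and 9.02 in control arrays. The mean of 7 thalamus markers lay between 7.56 and 7.95 in Dp5/Dp1 arrays, against 7.84 to 8.39 in control arrays, and Dp5/Dp1 replicates 2, 3 and 4 lay below every control. The 10 hippocampal neuron markers were at 10.78 to 10.89 in Dp5/Dp1 arrays, against 10.80 to 10.84 in control arrays, and none of the markers in these lists was called. Ltn1 differed by 0.39 (adjusted p = 0.00944) with the habenula and choroid plexus means as covariates. With the habenula mean alone it differed by 0.38 (adjusted p = 0.0416), and with the thalamus mean alone, a fit added after the data were seen, by 0.41 (adjusted p = 0.0142). When Dp5/Dp1 replicates 2 and 5 were both left out, it differed by 0.34 and the adjusted p was 0.0548, which is not a call, in a comparison of 3 arrays with 5.

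All 16 Ltn1 probe sets were higher in Dp5/Dp1 mice when each of the 21789 single-symbol probe sets was fitted on its own. Each was called, with adjusted p between 9.13e-05 and 0.0474, against 0.257% of all probe sets called higher. In each the 5 Dp5/Dp1 arrays stood above the 5 control arrays. That separation was seen for 0.762% of all genes and was not counted over all single probe sets. The 16 probe sets read 1 gene on the same 10 arrays, so they are not 16 separate results. The log2 differences ran from 0.38 to 0.73, with a median of 0.51 (1.43-fold). The probe set used above as the gene's reading had the smallest difference of the 16. The largest belonged to probe set 10440562, which read 9.24, 8.92, 9.18, 9.12 and 9.26 in Dp5/Dp1 arrays, against 8.46, 8.36, 8.41, 8.44 and 8.40 in control arrays. Its log2 difference was 0.73 ± 0.057, with an interval of 0.61 to 0.85 (adjusted p = 0.000137). It was the only one whose interval lay wholly above 0.58. The interval lay wholly below that value in 6 probe sets and contained it in 9. The probe set with the highest adjusted p, 10440576, read 9.21, 9.37, 9.41, 9.61 and 9.52 in Dp5/Dp1 arrays, against 9.15, 8.97, 8.85, 9.07 and 8.99 in control arrays, and its lowest Dp5/Dp1 array stood only just above its highest control array.

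**Figure D2:**
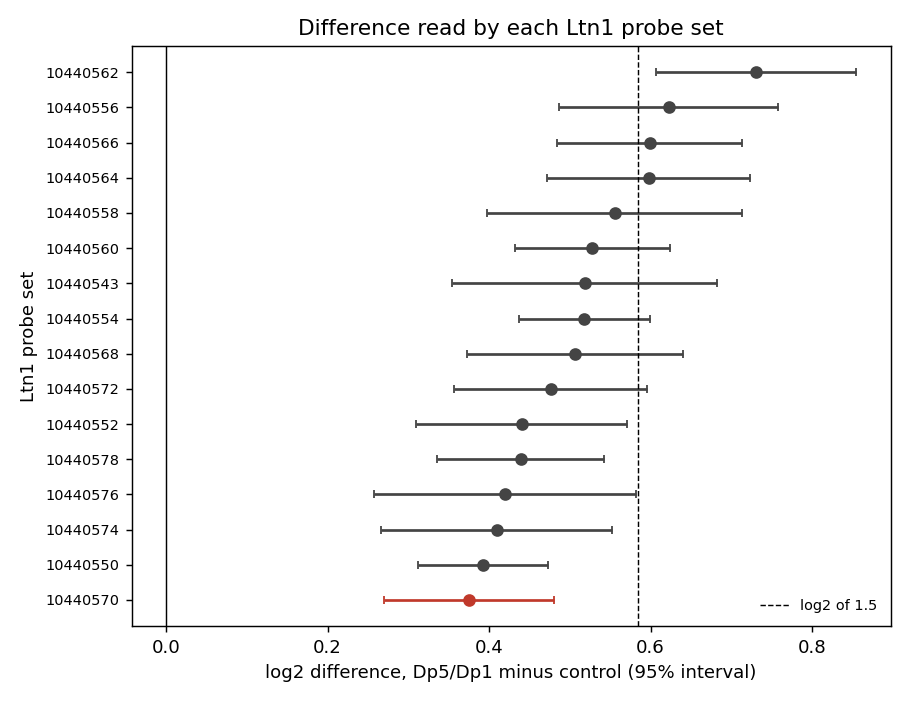
Log2 difference, Dp5/Dp1 minus control, of each of the 16 Ltn1 probe sets (horizontal axis, with 95% intervals from limma), ordered by size, with 0 as a solid line, log2 of 1.5 as a dashed line and the brightest probe set in red. All 16 intervals lie above 0, and the brightest probe set has the smallest difference, 0.38.

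The spread among these probe sets was then described, without a test, since the probe sets set against each other were picked after their values were seen. The log2 signal of 10440562 minus that of 10440570 averaged -2.29 ± 0.15 in Dp5/Dp1 arrays and -2.65 ± 0.04 in control arrays (SD, n = 5 each), a gap of 0.35 ± 0.071 (SE), and its range was -2.49 to -2.09 in Dp5/Dp1 arrays against -2.69 to -2.58 in control arrays. In order of probe-set number, the first 4 differed by 0.39 to 0.52, numbers 5 to 11 by 0.51 to 0.73 and numbers 12 to 16 by 0.38 to 0.48. These runs were not among the planned readings and were not tested against each other. The tables used here give no position of a probe set within the gene. A non-coding transcript model of Ltn1 was listed for 10 of the 16, whose differences ran from 0.38 to 0.73, and the 6 without it ran from 0.39 to 0.62. The size read for Ltn1 thus varied among the 16 probe sets, a variation that was not tested, and the direction was the same in all of them.

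The order of arrays within a group varied from probe set to probe set. With each group centred on its own mean, r between pairs of Ltn1 probe sets over the 10 arrays ran from -0.268 to 0.950, with a median of 0.532. The mean of the 16 probe sets was 9.83, 9.81, 9.89, 9.94 and 9.99 in Dp5/Dp1 arrays 1 to 5, against 9.46, 9.29, 9.39, 9.42 and 9.37 in control arrays 1 to 5. That gave 9.89 ± 0.07 in Dp5/Dp1 mice and 9.39 ± 0.06 in controls, and a difference of 0.51 (adjusted p = 0.000259 with every gene read by the mean of its probe sets). Dp5/Dp1 replicate 5 was the highest array in 11 of the 16 probe sets and Dp5/Dp1 replicate 4 in the other 5. The lowest Dp5/Dp1 array was replicate 1 in 8 probe sets, replicate 2 in 7 and replicate 3 in 1. Control replicate 2 was the lowest control in 10. Relative to each probe set's control mean, Dp5/Dp1 replicate 1 ranged most widely, from 0.19 to 0.83, and Dp5/Dp1 replicate 2 least among its group, from 0.35 to 0.51. The 5 control arrays ranged between -0.23 and 0.17.

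**Figure D3:**
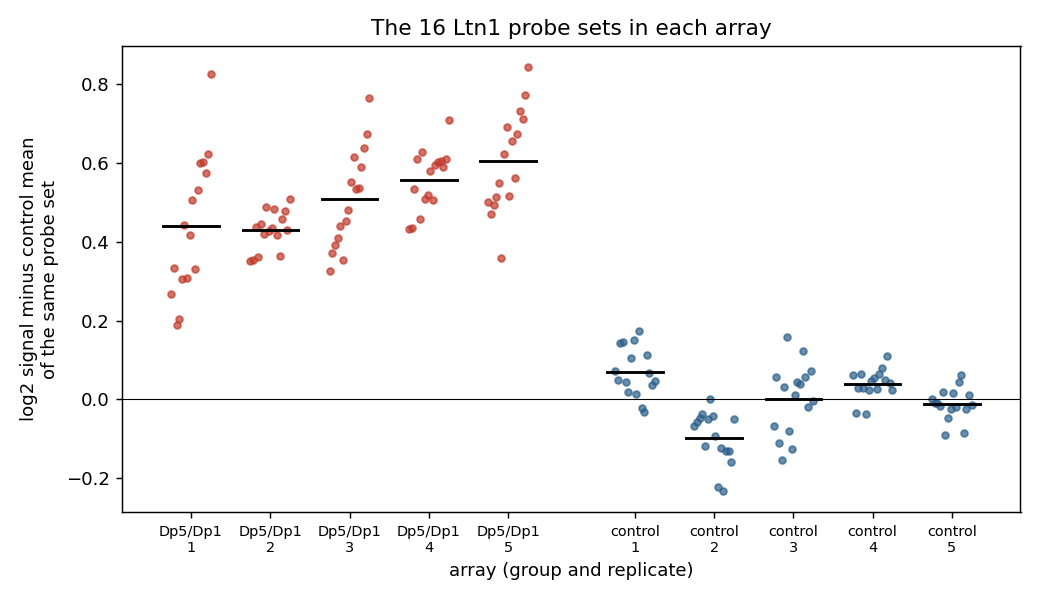
Log2 signal of the 16 Ltn1 probe sets in each array, each probe set set to 0 at its control mean (vertical axis), with Dp5/Dp1 replicates 1 to 5 (red) left of control replicates 1 to 5 (blue), 1 point per probe set and the array's mean as a black bar. The lowest Dp5/Dp1 point is at 0.19 and the highest control point at 0.17, and the array means are 0.43 to 0.60 in Dp5/Dp1 arrays.

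Within a list of 42 genes of its own segment, all measured, Ltn1 stood near the middle by its brightest probe set. The list does not hold every gene of the segment, and the study counted more trisomic expressed genes for Dp5Yah. Of the 42 listed genes, 25 were called higher and none lower. Their median log2 difference was 0.36, against 0.0019 for all genes, and Ltn1 ranked 20 of 42. With the mean of each gene's probe sets in place of the brightest one, it ranked 2 of 42. Of 6 genes listed as its nearest neighbours, 5 were called higher, with differences of 0.27 to 0.50, and the other measured 0.12.

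None of the genes that act first on a stalled ribosome was called. Pelo, which enters the empty decoding site, read 6.81, 6.74, 6.78, 6.79 and 6.83 in Dp5/Dp1 arrays, against 6.84, 6.91, 6.83, 6.78 and 6.92 in control arrays. The groups overlapped, with the Dp5/Dp1 mean lower by a log2 difference of -0.07 ± 0.034 (95% interval -0.14 to 0.01, adjusted p = 0.832), the lowest p among the 7. Hbs1l, the GTPase that delivers Pelo, read 9.76, 9.93, 9.82, 9.94 and 9.92 in Dp5/Dp1 arrays, against 9.88, 9.91, 9.92, 10.01 and 9.87 in control arrays. Its difference was -0.05 ± 0.042 (-0.14 to 0.05, adjusted p = 0.892), and its other probe set gave -0.03 ± 0.056 (-0.15 to 0.09). Abce1, the ATPase that parts the subunits, read 10.82, 10.75, 10.80, 10.82 and 10.88 in Dp5/Dp1 arrays, against 10.85, 10.75, 10.88, 10.79 and 10.80 in control arrays. Its difference was -0.00012 ± 0.034 (-0.08 to 0.07, adjusted p = 0.9998), so the group means were nearly equal.

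The genes that work with listerin on the large subunit were also not called. Nemf, which brings listerin to the ribosome, read 8.83, 8.95, 8.92, 9.10 and 8.99 in Dp5/Dp1 arrays, against 8.90, 8.93, 9.06, 9.06 and 9.05 in control arrays. The difference was -0.04 ± 0.053 with an interval of -0.15 to 0.07 (adjusted p = 0.925), and both the highest and the lowest array were Dp5/Dp1. Tcf25 read 12.51, 12.47, 12.48, 12.52 and 12.42 in Dp5/Dp1 arrays, against 12.44, 12.48, 12.52, 12.44 and 12.47 in control arrays. It had the smallest SE of the 8, with a difference of 0.01 ± 0.029 (-0.05 to 0.08, adjusted p = 0.961).

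The genes that act after ubiquitination were not called either. Vcp, the ATPase that extracts the tagged chain, read 10.85, 10.80, 10.89, 10.85 and 10.90 in Dp5/Dp1 arrays, against 10.87, 10.71, 10.84, 10.84 and 10.81 in control arrays, a difference of 0.05 ± 0.036 (-0.03 to 0.12, adjusted p = 0.875). Ankzf1, which frees the chain from its tRNA, read 6.78, 6.78, 6.68, 6.81 and 6.70 in Dp5/Dp1 arrays, against 6.71, 6.79, 6.77, 6.74 and 7.04 in control arrays. Control replicate 5 stood above all others, and the difference of -0.06 ± 0.058 (-0.18 to 0.07, adjusted p = 0.901) became 0.0013 without it.

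Over the 7 partners, 2 had a higher and 5 a lower mean in Dp5/Dp1 mice, their median difference was -0.04, and no interval reached above 0.12 (1.09-fold) or below -0.18 (0.880-fold). All 7 intervals contained 0, and all 7 lay below the 0.38 of Ltn1. These bounds are intervals of the 7 genes and not a limit of detection. Pelo and Ankzf1 had mean signals of 6.82 and 6.78, close to the level below which the dimmest 40% of genes lie, where array values can understate a change. The log2 signal of Ltn1 minus that of a partner, taken within each array, was higher in every Dp5/Dp1 array than in every control array for all 7 partners, with gaps of 0.33 ± 0.045 (SE) for Vcp to 0.44 ± 0.062 for Pelo. The same separation was seen for 83.4% of all other genes set against Ltn1, so it is not a feature of these partners.

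Beyond the 8, a list of 88 further 2-copy genes of the pathway and its branches was read, of which 83 were measured. None was called in either direction. The median difference was 0.0071, 43 had a higher and 40 a lower mean in Dp5/Dp1 mice, and 7 (8.43%) had an unadjusted p under 0.05, against 6.06% of all genes. All 83 overlapped between groups, where 0.762% of all genes had every Dp5/Dp1 array above and 0.321% every Dp5/Dp1 array below the controls.

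In the list for release of the finished or stalled chain, the triplicated N6amt1 was called higher. N6amt1, the catalytic subunit of the methyltransferase that modifies the translation release factor Etf1, read 9.06, 9.05, 8.95, 9.09 and 8.79 in Dp5/Dp1 arrays, against 8.42, 8.66, 8.56, 8.44 and 8.48 in control arrays. No arrays overlapped, and the difference was 0.47 ± 0.062 (adjusted p = 0.00653). Trmt112, the 2-copy partner that stabilises N6amt1, differed by 0.13 ± 0.12 (-0.12 to 0.39, adjusted p = 0.888), and the substrate Etf1 by 0.04 ± 0.047 (-0.07 to 0.14, adjusted p = 0.921). None of the 6 measured 2-copy genes of 8 in this list was called, and their median was 0.03.

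The third triplicated gene acts on the small subunit. Usp16, a deubiquitinase of ribosomal and histone proteins, read 8.86, 8.86, 8.66, 8.98 and 8.78 in Dp5/Dp1 arrays, against 8.33, 8.26, 8.57, 8.40 and 8.55 in control arrays, with the annotated end of the gene overlapping that of Cct8. Its difference was 0.41 ± 0.070 (adjusted p = 0.0479). The direction held in all 21 alternatives run, but in 15 of them the call was lost. With single arrays left out it was kept only without Dp5/Dp1 replicate 3 or control replicate 3, and the adjusted p went as high as 0.175, without control replicate 1. None of the 8 2-copy genes for ubiquitin on the small subunit was called (median -0.04), with the lowest p for Otud3, a deubiquitinase, at -0.14 ± 0.082 (adjusted p = 0.840) and Rnf10, a ubiquitin ligase, at -0.05 ± 0.031 (adjusted p = 0.857).

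In the other lists the genes of lowest p stayed far from the threshold. Of 9 measured genes of collision sensing (10 listed), the helicase Ascc3 measured -0.14 ± 0.061 and its partner Ascc2 -0.08 ± 0.060 (adjusted p = 0.821 and 0.867). Of 9 genes that handle the extracted chain, the Vcp cofactors Ubxn1 and Nsfl1c measured 0.07 ± 0.041 and 0.06 ± 0.046 (adjusted p = 0.841 and 0.875). Of 18 mRNA decay genes, N4bp2, whose yeast relative cuts mRNA at stalled ribosomes, measured -0.15 ± 0.067 and the exosome subunit Exosc9 0.08 ± 0.041 (adjusted p = 0.824 and 0.832). None of these 3 lists held a call, and their medians were -0.01, 0.02 and -0.01.

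UFM conjugation marks ribosomes stalled at the endoplasmic reticulum, and its list had 7 measured genes of 8 and a median of 0.02. The protease Ufsp1 and the conjugating enzyme Ufc1 measured 0.12 ± 0.046 and 0.13 ± 0.056 (adjusted p = 0.806 and 0.818). Of 12 measured stress kinase and translation initiation genes of 13, Eif2ak4, the kinase activated by stalled ribosomes, measured -0.13 ± 0.057 and its inhibitor Impact 0.08 ± 0.054 (adjusted p = 0.814 and 0.848). Of 14 target genes of the integrated stress response, Psat1, an enzyme of serine synthesis, measured -0.12 ± 0.032 and Sesn2, a sensor in amino acid signalling, -0.17 ± 0.054 (adjusted p = 0.499 and 0.700). Both had lower means in Dp5/Dp1 mice, and their arrays overlapped with those of controls. Slc7a11 of the same list, named after its values were seen, measured -0.31 ± 0.12 (-0.57 to -0.05, adjusted p = 0.806). That was the lowest value among the 83 measured 2-copy genes. In this list 3 genes (21.4%) had an unadjusted p under 0.05, all lower in Dp5/Dp1 mice, against 6.06% of all genes. In the UFM list there were 2 such genes (28.6%), both higher.

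**Figure D4:**
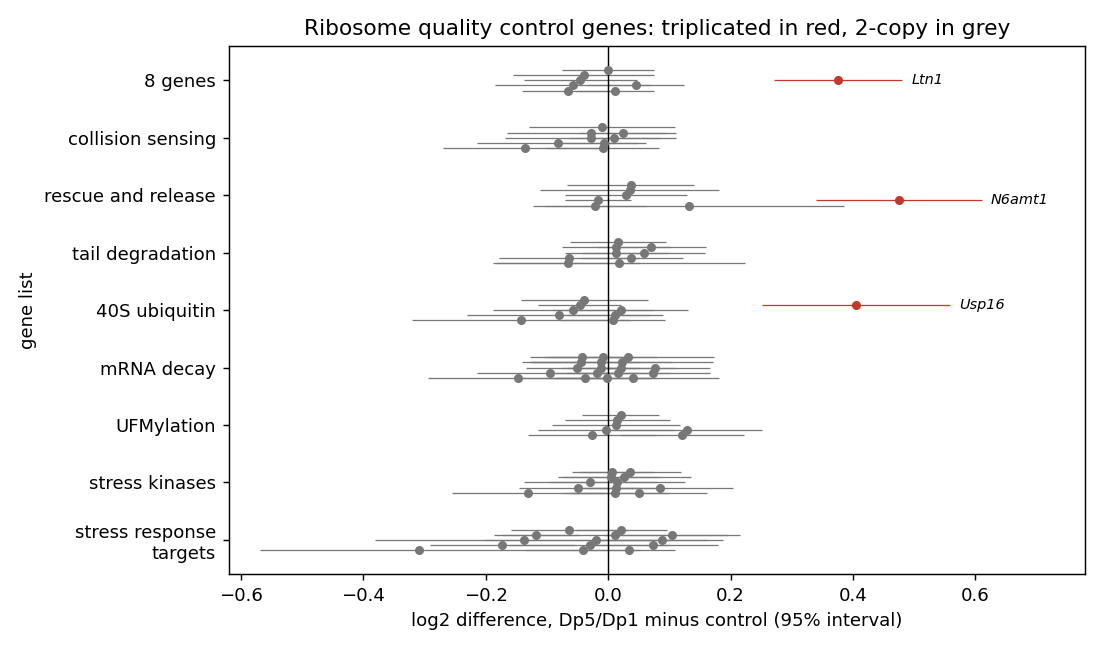
Log2 difference, Dp5/Dp1 minus control, with 95% intervals (horizontal axis) for the 8 genes and for 8 lists of related genes (rows), triplicated genes in red and 2-copy genes in grey. The differences of the triplicated genes Ltn1 (0.38), N6amt1 (0.47) and Usp16 (0.41) lie above those of the 2-copy genes, which run from -0.31 to 0.13. The intervals are not all apart: that of the 2-copy gene Trmt112 (-0.12 to 0.39) overlaps those of the triplicated genes.

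The genes most like Ltn1 across the arrays, once each group was centred on its own mean, were Fbxw11, Smchd1, Naa15, Cdc14b and N4bp2l2, with Pearson's r of 0.952, 0.946, 0.936, 0.934 and 0.933 over 10 arrays. They were the highest of 11962 genes searched, none lay in a duplicated segment, and none was called, with differences between -0.11 and -0.02. Against the mean of the 16 Ltn1 probe sets their r was 0.724 to 0.907. Among the partners r with Ltn1 was 0.591 for Hbs1l, 0.487 for Vcp, 0.435 for Nemf, 0.358 for Abce1, -0.102 for Pelo, -0.152 for Ankzf1 and -0.679 for Tcf25. These are descriptions over the same 10 arrays, which share their normalization and their tissue makeup.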

How the data were processed

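Hippocampal RNA of 5 Dp5/Dp1 and 5 control mice was hybridised to Affymetrix Mouse Gene ST arrays. The authors deposited log2 values after RMA (background correction, quantile normalization, 1 summary per probe set), with RMA, limma and mm10 named in the submitters' processing notes and versions not given in the sources used here. Quantile normalization gives all arrays nearly the same distribution (medians 6.73 to 6.80), and such values tend to understate large or dim changes. Of 35556 probe sets, 21789 had 1 symbol in the platform annotation, 1621 several and 12146 were unnamed here, and 21698 of the 21789 matched the RefSeq table of GRCm38.p6, the assembly of mm10. The probe set with the highest mean was kept for each gene. Levels were not compared between genes. A two-sided limma test (version 3.58.1, run in R 4.3.3 with lmFit and eBayes) was fitted to all 19938 genes, without covariates, with Benjamini-Hochberg adjustment, and "called", "rose" and "fell" refer to an adjusted p under 0.05. The fit was checked on simulated data. Intervals are 95% from the moderated fit, and the number of arrays limits precision. Labels call the arrays biological replicates.

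The 8 genes, the lists and the naming rule were chosen with earlier results of these data known. Named were the 8 genes, triplicated genes in the pathway lists, called genes or the 2 of lowest p in each list, and the 5 genes most like Ltn1. Listed genes beyond those measured were not analysed here. Alternatives were other filters, scalings and probe-set readings, variance settings, array weights, a replicate block, marker covariates, arrays left out, an adjusted p under 0.1 and FCROS, the study's rank method, rewritten from its description.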

Additional observations from a re-analysis of the deposited data

Results flagged for a closer look

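The 8 genes were read in 48 sets of 5 arrays (24 probe sets in 2 groups). In 3 sets an array stood far from the rest of its group, by the gap to its nearest neighbour over the group's range. Chance alone marks about 1 set in 20 when sets are separate. These are not separate, since the 16 Ltn1 probe sets read 1 gene on the same 10 arrays. Ankzf1 in control replicate 5 was at 7.04, with the next array at 6.79, a gap of 0.763 of the range. The other 2 were control replicate 2 in Ltn1 probe sets 10440556 (9.41, next 9.58, a gap of 0.740 of the range) and 10440578 (9.23, next 9.36, a gap of 0.837), low arrays that lay farther from the Dp5/Dp1 arrays than the other controls did.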

How the results depend on the processing

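The Ltn1 difference kept its direction in all 36 alternatives (0.34 to 0.73) and its call in 35. The exception was the fit without Dp5/Dp1 replicates 2 and 5 (0.34, adjusted p = 0.0548), where 0 of the 8 genes were called. The 36 include the other Ltn1 probe sets fitted singly, already given above, and the fits with single arrays left out. The 0.73 is 1 of those probe sets and not a change of processing. Apart from them the largest difference was 0.51, with the mean of the probe sets. Leaving out single arrays gave 0.34 to 0.40, with adjusted p of 0.00552 to 0.0256. Of the 16 Ltn1 probe sets, a count added after the data were seen, 14 to 16 were called when single arrays were left out, 13 without Dp5/Dp1 replicates 2 and 5 and 11 with the replicate block. With that block the Ltn1 difference was 0.38 (adjusted p = 0.0422). Same-numbered arrays did not deviate together (r of -0.353 to 0.292 over genes), so the numbers were not taken to pair mice. The count of called 2-copy pathway genes was 0 in every limma fit and at an adjusted p under 0.1, and 6 by FCROS (Ascc3, N4bp2, Eif2ak4, Sesn2, Psat1 and Slc7a11, all lower in Dp5/Dp1 mice, 7.23% of the 83 genes, against 5.06% of all genes), of which the last was named after its values were seen. N6amt1 stayed called in all 21 alternatives. No partner of Ltn1 was called in any in which it was tested. Ankzf1 was among the dimmest 40% of genes and so was not tested in the fit without them. With thalamus markers as the covariate, a fit added after the data were seen, 13 of the 16 Ltn1 probe sets were called and Tcf25 changed sign to -0.012. The near-zero Abce1 difference changed sign in 8 alternatives. It was 0.019 with the thalamus covariate, 0.00070 with quantile normalization repeated, 0.0067 with both marker covariates and 0.0023 with the habenula covariate. Without Dp5/Dp1 replicate 2 or 3 it was 0.016 or 0.0028, and without control replicate 1 or 3 it was 0.0084 or 0.016. Over all fits with single arrays left out, the Abce1 difference ran from -0.018 to 0.016. That of Ankzf1 was -0.082 to 0.0013 when single arrays were left out. The cause was not tested.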
